A study of Mus musculus with 3 samples.

Results

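The largest and the smallest tumour cells of MMTV-PyMT mammary tumours were compared by their cell volume, taken from segmented images. A cell entered when it held at least 20 panel transcripts, at least 1 transcript of the epithelial cadherin gene Cdh1, less than 10% of its transcripts from the collagen gene Col1a1, and a volume from 50 units to 3 times the median of its section. The file headers give no unit for volume, so values are in the deposited unit. These criteria kept 281288 of 663145 cells in tumour 1, 179834 of 513963 in tumour 2 and 207882 of 786165 in tumour 3, which makes 669004 of 1963273 in all. The arms were chosen by volume: within each section the bottom quartile of these cells formed the small arm and the top quartile the large arm, with 70322 cells in each arm of tumour 1, 44959 in each of tumour 2 and 51971 in each of tumour 3. The arms together hold 334504 cells.

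The samples were paraffin sections of 3 mouse tumours titled MMTV-PyMT WT, each imaged with MERSCOPE, an in situ hybridization method that decodes single RNA molecules in place and assigns them to cells. The series' design text describes the tumours as distinct and names transcriptional heterogeneity in space as the subject. The tables used here hold 258 genes and 27 blank codes, barcodes that belong to no gene and count false decoding. All cells come from the same untreated group. The labels do not say what WT stands for, how old the animals were or whether each tumour came from a separate animal. The p-values therefore measure how far the difference between arms varies over these 3 tumours, and not a spread between animals. In this model the polyoma middle T antigen is driven by the mouse mammary tumour virus promoter, which is active in mammary epithelium, and the tumours are carcinomas with stromal, vascular and immune cells of the host.

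A cell grows as it goes through the cycle and divides into smaller daughters, so cell size and cycle phase are linked in proliferating tissue. Mki67 encodes the Ki-67 protein, found in cycling cells and lost in quiescent ones, and Top2a encodes DNA topoisomerase II alpha, which untangles chromosomes before mitosis. In an image, the measured volume is also set by how the section passes through the cell and by how the outline was drawn.

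The label of the cells was checked against epithelial genes that the selection did not use. Cldn4, a tight junction gene, stood at 19.99, 9.61 and 25.6 counts per 1000 panel transcripts in the selected cells of tumours 1, 2 and 3, against 12.2, 5.65 and 18.6 in the other cells within the count and volume limits. The epithelial regulators Grhl2 (9.45, 12.2 and 6.49 against 7.08, 10.2 and 5.76) and Gata3 (40.6, 53.8 and 27.4 against 31.3, 44.5 and 25.5) were also higher in the selected cells of every tumour. The endothelial gene Pecam1 (0.493, 0.469 and 0.287 against 1.30, 1.10 and 0.497) and the pericyte gene Pdgfrb (0.757, 0.626 and 0.480 against 2.33, 2.05 and 1.12) were lower. Summed, the pericyte or smooth muscle markers Pdgfrb, Rgs5 and Notch3 differed less, at 11.2, 14.8 and 11.6 against 12.6, 15.2 and 12.8. Most of these sums came from Rgs5 and Notch3, so they separate the selected cells from the others only weakly. Not every epithelial gene was higher: the basal keratin genes Krt5 (7.17, 2.96 and 3.48 against 8.86, 3.86 and 5.25) and Krt14 (1.92, 1.53 and 1.37 against 2.15, 1.72 and 1.36) were lower in the selected cells, Krt5 in 3 of 3 tumours and Krt14 in tumours 1 and 2. The other cells still held clear levels of the epithelial genes, so the selection takes cells with a detected Cdh1 molecule and may not take all epithelial cells. The genes checked mark epithelium, and the name tumour cells rests on the tissue the sections came from.

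Large cells had 2.75 to 2.85 times the median volume of small cells, as the selection sets. The median volume was 344, 431 and 399 in the small arms of tumours 1, 2 and 3 and 979, 1196 and 1098 in the large arms. At the lower limit of the middle range, the largest small cell of tumour 1 had a volume of 450.015 and the next cell 450.019, and at the upper limit the last cell outside the large arm had 814.867 and the first inside 814.874. In tumours 2 and 3 the limits lay at 553.0 and 997.9 and at 517.5 and 921.8. Volume divided by the area of the cell's bounding box had a median of 7.16 to 7.30 in small and 7.21 to 7.44 in large arms, so this ratio shifted little between the arms. The outlined area itself was not computed.

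The median large cell held 196, 249 and 220 panel transcripts in tumours 1, 2 and 3, and the median small cell held 71, 85 and 80. Per volume the order turned. The summed transcripts per 1000 volume units were 229, 226 and 234 in small cells and 199, 210 and 203 in large cells, lower in large cells in 3 of 3 tumours. The selection asked for at least 20 transcripts and 1 of Cdh1 at any volume, so a small cell had to be denser to enter. How far this sets the order was not tested. In 20 transcripts drawn at random from each cell, the median number of different genes was 16 in both arms of every tumour. Large cells had less elongated outlines, with a median anisotropy of 1.31, 1.23 and 1.27 against 1.41, 1.34 and 1.38, and slightly less convex ones, with a median solidity of 0.979, 0.984 and 0.981 against 1 in every small arm. They had fewer cell centres within 25 length units (27, 14 and 21 against 31, 21 and 27). A larger outline itself fills more of that circle, so this order follows in part from the choice of arms. With 3 pairs the exact permutation test by sign flips, two-sided, cannot give a p below 0.25, so these measures stand as values.

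**Figure D1:**
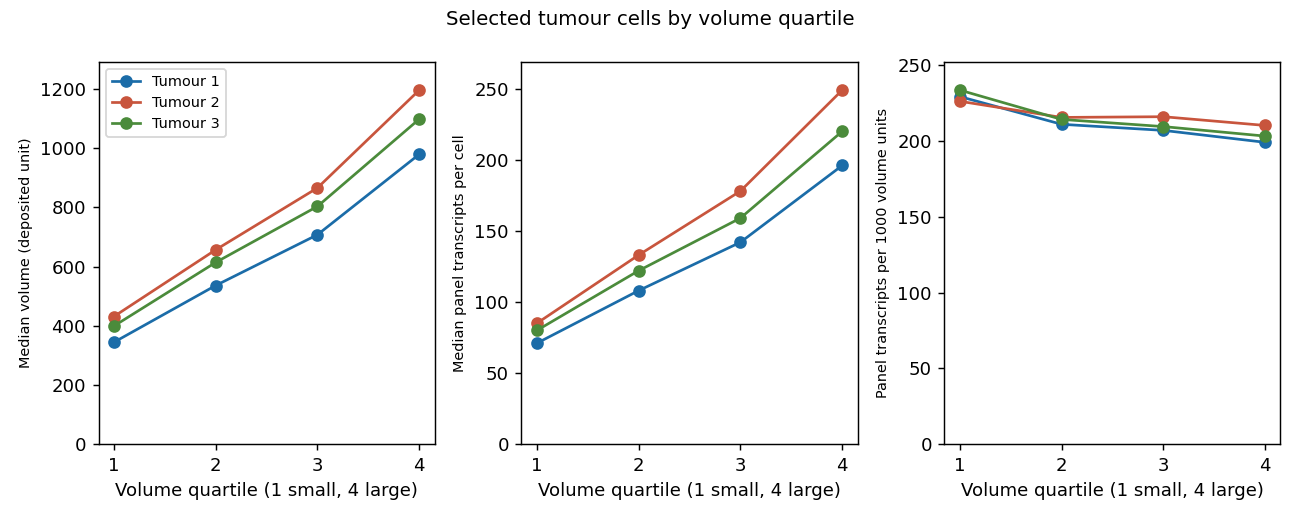
Median cell volume (deposited unit), median panel transcripts per cell and summed panel transcripts per 1000 volume units, by volume quartile of the selected tumour cells (1 is the small arm, 4 the large arm), each line 1 tumour. Transcripts per cell rise with volume, from 71 to 196 in tumour 1, while transcripts per volume are lower in the top than in the bottom quartile, 229 against 199 in tumour 1.

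Mki67 and Top2a took a larger share of the transcripts of large cells, and in the main edgeR test they were the only genes of 256 to pass. The test was edgeR's quasi-likelihood test on counts summed per tumour and arm, with the tumour as a block and Benjamini-Hochberg adjustment over the genes tested at a threshold of 0.05. In that comparison 2 of 256 genes (0.781%) were higher in large cells and 0 lower, with 48 genes (18.8%) at an unadjusted p under 0.05. DESeq2 on the same sums called 12 higher (4.69%) and 18 lower (7.03%), 11.7% in all, both genes among the higher. Cdh1 and Col1a1 were left out of the test because the selection used them.

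In the small arm Mki67 stood at 6.48, 3.44 and 4.69 counts per 1000 panel transcripts in tumours 1, 2 and 3, and in the large arm at 13.0, 5.11 and 7.65. The level was higher in the large cells of each tumour, most so in tumour 1, and the arms overlapped across tumours, since the small cells of tumour 1 lay above the large cells of tumour 2. The means were 4.87 ± 1.53 and 8.59 ± 4.04 (SD, n = 3), with a log2 fold change of 0.76 ± 0.09 (SE) and an edgeR adjusted p of 0.0393. Per cell, the mean Mki67 count was 0.486, 0.319 and 0.415 in small and 2.67, 1.35 and 1.79 in large cells.

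Top2a stood at 2.25, 1.52 and 1.78 per 1000 in the small arm and at 4.70, 2.39 and 2.80 in the large arm. All 3 large values lay above all 3 small ones, which held for 2.34% of the genes tested. The log2 fold change was 0.79 ± 0.10 (SE, n = 3, edgeR adjusted p = 0.0393), and within tumours it was 1.06, 0.65 and 0.66. The highest blank code stood at 0.310 to 0.412 per 1000 in the 6 sums, below both genes in every one. Per 1000 volume units, a scale that does not use the panel total, Mki67 counted 1.49, 0.779 and 1.10 in small and 2.59, 1.07 and 1.56 in large cells. Top2a on that scale counted 0.516, 0.344 and 0.415 against 0.936, 0.502 and 0.569, so both were denser in the large cells of every tumour. All transcripts together were less dense in the large cells, an order in which the count criteria of the selection can take part.

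The promoters of both genes are printed because these genes moved together and promoters of cell cycle genes of this kind commonly carry 2 elements, the CCAAT box, bound by NF-Y, and the cell cycle homology region (CHR), bound by the DREAM and B-MYB-MuvB complexes. The 250 bases before each gene's start are from RefSeq on GRCm38.p6, both on the minus strand, at chr7:135716380-135716629 for Mki67 and chr11:99024190-99024439 for Top2a. They read 5′ to 3′ along the gene. Capitals mark matches on either strand to the CCAAT box (its letters as named), to the CHR element TTTGAA and to its form with a central CG, which is written TTCGAA.
Mki67: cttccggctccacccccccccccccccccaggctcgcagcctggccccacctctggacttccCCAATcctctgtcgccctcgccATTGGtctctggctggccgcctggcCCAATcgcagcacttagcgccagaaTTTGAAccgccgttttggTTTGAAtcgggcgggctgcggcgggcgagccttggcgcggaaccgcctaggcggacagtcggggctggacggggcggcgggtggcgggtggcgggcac
Top2a: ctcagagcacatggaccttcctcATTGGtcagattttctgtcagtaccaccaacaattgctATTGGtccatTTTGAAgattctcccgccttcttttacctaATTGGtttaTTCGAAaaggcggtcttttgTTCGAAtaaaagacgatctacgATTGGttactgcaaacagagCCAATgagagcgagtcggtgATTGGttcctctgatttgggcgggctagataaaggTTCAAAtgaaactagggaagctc
Mki67 held 3 CCAAT boxes and 2 CHR elements, and Top2a held 6 CCAAT boxes, 2 CHR elements and 2 of the form with a central CG, with no overlap among these matches. Of 32851 promoter windows of this length, 33.9% held at least 1 CCAAT box and 2.79% held at least 3. The CHR element was present in 16.0% and the form with a central CG in 1.34%. A CCAAT box together with either CHR form occurred in 6.02%. A match is a description of the letters and no measured binding.

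The third measured gene of the cell cycle list was Ccnd1, encoding cyclin D1, which acts in G1 and responds to growth signals. It stood at 15.1, 16.3 and 18.05 per 1000 in small and 19.5, 19.7 and 18.08 in large cells. The ratio was near 1 in tumour 3, and the log2 fold change of 0.22 ± 0.08 (SE, n = 3) did not pass (edgeR adjusted p = 0.238). Of the 12 genes on the list 3 were on the panel, 2 of them passed as higher and 0 as lower, and their median log2 fold change was 0.76, against 0.04 over all 256 genes tested. Among cells without any Mki67 or Top2a transcript (144745, 117486 and 108168 of the selected cells), Ccnd1 gave -0.14 (edgeR adjusted p = 0.404) and 0 of 254 genes passed in edgeR, while 47 had an unadjusted p under 0.05. That comparison left Mki67 and Top2a out of the test and was added after the data were seen. Absence was judged at full depth, with medians of 71, 85 and 80 transcripts per cell in the main small arms and 196, 249 and 220 in the large. It therefore says less about a small cell, and small cells with undetected Mki67 or Top2a can remain.

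**Figure D2:**
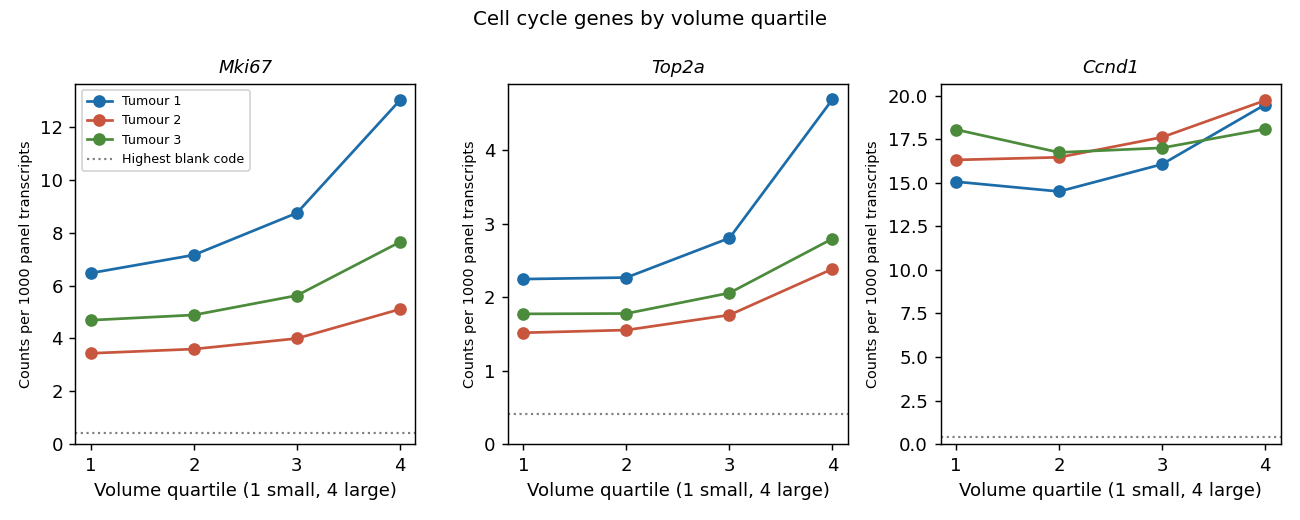
Level of the 3 measured cell cycle genes in counts per 1000 panel transcripts by volume quartile (1 small, 4 large), each line 1 tumour, with the highest blank code over all arms as a dotted line at 0.412. Mki67 and Top2a rise over the 4 quartiles in each tumour, and Ccnd1 does so only in tumour 2.

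The order was also present in cells that neither arm held. From the second to the third volume quartile Mki67 went from 7.16 to 8.75 per 1000 in tumour 1, from 3.60 to 4.001 in tumour 2 and from 4.89 to 5.63 in tumour 3, a log2 fold change of 0.22 ± 0.03 (SE, n = 3, edgeR adjusted p = 0.0361). Top2a went from 2.27 to 2.81, from 1.56 to 1.76 and from 1.78 to 2.06 (0.23 ± 0.03, adjusted p = 0.0361). These were again the only 2 of 256 genes to pass (0.781%), and DESeq2 called 5 genes higher (1.95%), both among them. Under TMM normalization neither passed (adjusted p = 0.0542), and without tumour 2 neither passed (adjusted p = 0.237).

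More large cells held these transcripts. With 20 transcripts drawn from every cell, so that both arms had equal depth, Mki67 was present in 10.2%, 5.31% and 8.49% of small cells and in 19.5%, 7.60% and 13.2% of large cells. Top2a was present in 3.997%, 2.60% and 3.43% against 8.33%, 3.75% and 5.27%. Both shares were higher in the large cells of every tumour, by 1.43 to 2.08 times. Before thinning, Mki67 and Top2a occurred together in 6.78%, 4.77% and 5.98% of small and 35.7%, 19.5% and 28.5% of large cells, at median depths of 71, 85 and 80 against 196, 249 and 220 transcripts.

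Mki67 and Top2a were higher in large cells in 20 of 20 alternative settings, with log2 fold changes of 0.16 to 0.97 and 0.26 to 0.96, and passed in 12 of 20, with adjusted p-values from 3.47e-16 to 0.999. Neither passed without tumour 1 (0.64 and 0.66, edgeR adjusted p = 0.295), nor with arms matched on transcripts per cell (0.64 and 0.63, adjusted p = 0.237 and 0.204), and in cells with no transcript of another cell type's markers the values were 0.16 and 0.26 (adjusted p = 0.720 and 0.582). The others that ended the call, at log2 fold changes of 0.53 or more, were no block, at least 40 transcripts per cell, deciles, a split at the median volume and equal weight for each cell.

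**Figure D3:**
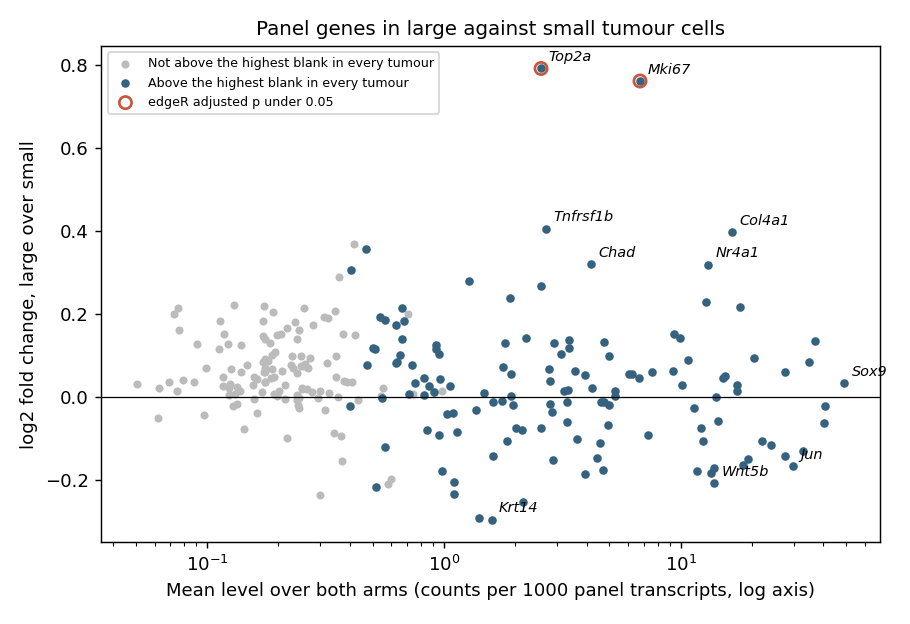
Log2 fold change, large over small, against the mean level over both arms (log axis) for the 256 genes tested, with genes above the highest blank code in every tumour in blue and others in grey. Mki67 (0.76) and Top2a (0.79) are circled as past the threshold and stand apart from the rest, which lie between -0.30 and 0.40.

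For the other gene lists, 0 members passed in either direction in edgeR with all 3 tumours, and their values are given with the median of all 256 genes, 0.04, as the point of reference. DESeq2, whose size factors put that median at -0.01, called 20 members of these lists, 3 higher and 17 lower, which are named by list. Over all 256 genes tested it called 4.69% higher and 7.03% lower. Scaling by cell volume in edgeR, which puts the median at -0.14, called 20 genes lower. Over all genes 28.5% were higher in large cells in 3 of 3 tumours and 9.38% lower in 3 of 3. The blank codes leaned the same way, with 13 of 27 higher in 3 of 3 tumours, a median log2 fold change of 0.08, a range of -0.06 to 0.33 and 0 called by edgeR, 5 at an unadjusted p under 0.05. Blanks made up 0.468%, 0.416% and 0.446% of the decoded transcripts of small cells and 0.488%, 0.462% and 0.464% of large cells. A gene counts as above background below where its summed count lay above the largest blank count in each of the 3 tumours, which held for 133 of the 256.

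Epithelial identity genes did not pass in edgeR, while DESeq2 called 1 of them lower. Gata3, which specifies luminal cells, was at 41.96, 53.8 and 27.4 in small and 39.8, 54.05 and 27.5 in large cells (log2 fold change -0.02 ± 0.05, edgeR adjusted p = 0.891). Cldn4 stood at 20.5, 10.5 and 26.97 against 19.1, 8.86 and 24.2, lower in the large cells of 3 of 3 tumours but not past the threshold in edgeR (-0.17 ± 0.05, adjusted p = 0.210). It passed as lower in DESeq2 (-0.21, adjusted p = 5.47e-05) and in edgeR when scaled by cell volume (-0.34, adjusted p = 0.0345). Of the 8 basal and myoepithelial genes measured, which mark the contractile outer layer of the mammary duct, 1 was higher and 2 lower in 3 of 3 tumours, with a median of -0.18. Krt14, a basal keratin, stood at 1.94, 1.88 and 1.43 against 1.81, 1.16 and 1.33. Its log2 fold change of -0.30 ± 0.14 (adjusted p = 0.346) came mostly from tumour 2, and without tumour 2 it was -0.10. Krt17, a keratin of stressed and basal epithelium, likewise gave -0.26 ± 0.22 (adjusted p = 0.595) and 0.09 without tumour 2. Mylk, the myosin light chain kinase of contractile cells, stood at 1.29, 1.02 and 1.13 against 1.69, 1.09 and 1.44 (0.28 ± 0.09, adjusted p = 0.210). DESeq2 called Mylk higher (0.23, adjusted p = 0.0323) and Trp63, the gene of the basal transcription factor p63, lower (-0.25, adjusted p = 0.0174). Without tumour 2 edgeR called Mylk higher, and in that setting it also called the endothelial genes Pecam1 and Cdh5 higher.

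Immediate early genes, which switch on within minutes of a stimulus, had a median of -0.09 over the 8 members of the list, 3 of them lower and 1 higher in 3 of 3 tumours. The transcription factor gene Egr1 stood at 10.6, 9.66 and 22.8 in small and 9.46, 8.59 and 19.7 in large cells (-0.18 ± 0.05, edgeR adjusted p = 0.210). Jun, a subunit of AP-1, stood at 31.6, 27.5 and 35.8 against 27.6, 25.7 and 30.9 (-0.17 ± 0.05, adjusted p = 0.210), and the phosphatase gene Dusp1 gave -0.14 ± 0.07 (adjusted p = 0.367). DESeq2 called all 3 of these lower, Egr1 at -0.23 (adjusted p = 6.33e-08), Jun at -0.21 (adjusted p = 0.00163) and Dusp1 at -0.19 (adjusted p = 0.0153). It called 7.03% of all genes tested lower. Nr4a1, an immediate early gene outside this list, went the other way, and DESeq2 called it higher (0.27, adjusted p = 3.82e-05). For Egr1 the tumours differed more than the arms, with tumour 3 highest in both.

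Among 17 inflammatory and NF-kB genes the median was 0.06, with 6 higher and 2 lower in 3 of 3 tumours. Nfkb1, the gene of the p105 and p50 subunit, stood at 9.52, 9.31 and 9.40 in small and 10.5, 10.6 and 10.1 in large cells, without overlap (0.14 ± 0.05, edgeR adjusted p = 0.231). Higher levels without overlap between the arms held for 2.34% of the genes tested. Cd14, the lipopolysaccharide co-receptor gene, gave -0.18 ± 0.07 (adjusted p = 0.238) and was called lower by DESeq2 (-0.22, adjusted p = 0.0071). The acute phase gene Saa1 gave 0.13 ± 0.12 (adjusted p = 0.618), higher in 2 of 3 tumours. The 11 interferon genes had a median of 0.01. H2-K1, a class I antigen gene, gave 0.15 ± 0.06 (adjusted p = 0.291), Irf1 gave 0.06 ± 0.06 and Irf7, a regulator of type I interferon, gave -0.09 ± 0.10, higher in 1 of 3 tumours.

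**Figure D4:**
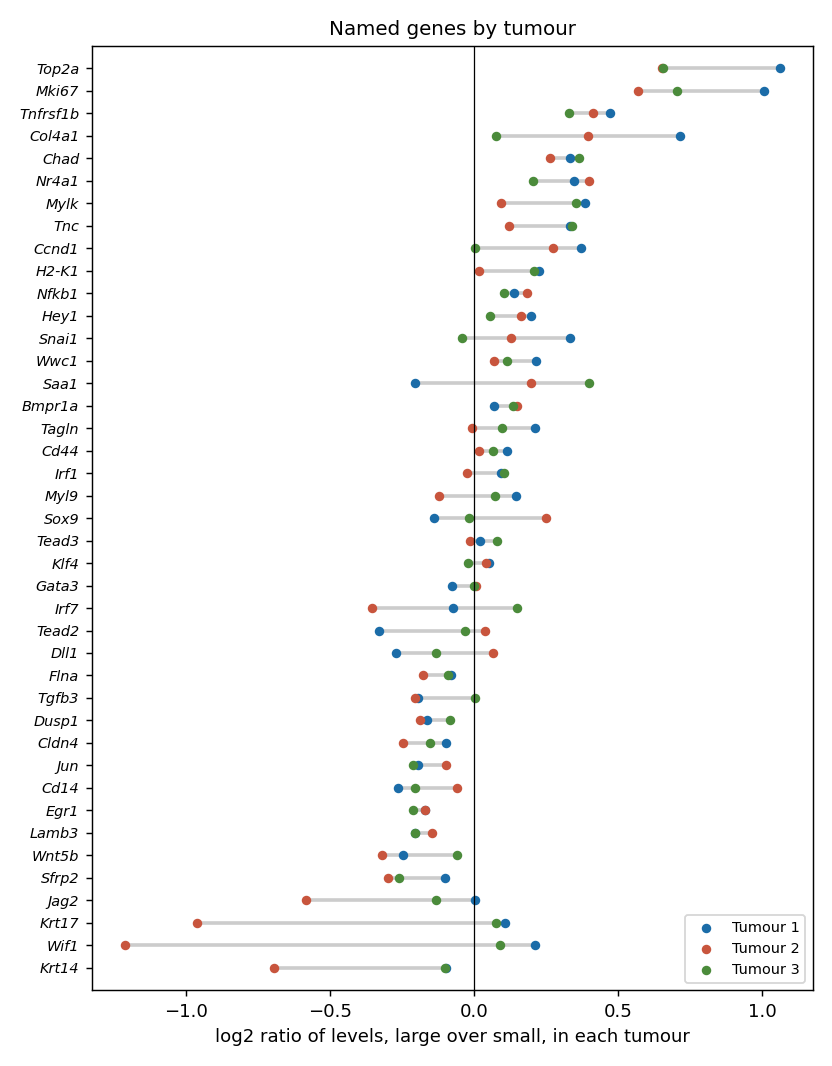
Log2 ratio of levels, large over small, in each tumour (points) for the genes described by list and for Tnfrsf1b, Chad and Nr4a1, with a grey bar from the lowest to the highest tumour. Top2a and Mki67 lie at 0.57 or above in all 3 tumours, while Krt17 and Wif1 are below 0 only in tumour 2.

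Signalling pathway genes were described in the order of ligands, inhibitors, receptors and effectors. Of 26 Wnt genes, 5 were higher and 6 lower in 3 of 3 tumours (median -0.01). The ligand gene Wnt5b stood at 17.5, 13.7 and 13.3 in small and 14.8, 10.98 and 12.7 in large cells (-0.21 ± 0.07, edgeR adjusted p = 0.210). The secreted inhibitor genes Wif1 and Sfrp2 gave -0.29 ± 0.28 (adjusted p = 0.618) and -0.22 ± 0.07 (adjusted p = 0.210), Wif1 being lower only in tumour 2, from 0.997 to 0.430. DESeq2 called 5 of the 26 Wnt genes lower, against 7.03% of all genes tested. In DESeq2 these were Wnt5b (-0.26, adjusted p = 0.00121), Sfrp2 (-0.26, adjusted p = 4.57e-04), the receptor gene Fzd1 (-0.15, adjusted p = 0.0273), Porcn, whose enzyme attaches the lipid of Wnt ligands (-0.23, adjusted p = 0.00252), and the effector gene Tcf7l2 (-0.22, adjusted p = 3.03e-04). Of 11 Notch genes, the ligand genes Jag2 (-0.24 ± 0.13) and Dll1 (-0.11 ± 0.08) and the target gene Hey1 (0.14 ± 0.07) were furthest from 0, with a list median of 0.0034. Without tumour 2 Jag2 gave -0.06, and DESeq2 called the receptor gene Notch1 lower (-0.15, adjusted p = 0.0468). Dll1 differed far more between tumours (1.84, 7.93 and 4.08 in small cells) than between arms (1.52, 8.29 and 3.73 in large cells).

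The 13 TGF-beta and BMP genes had a median of 0.05. The ligand gene Tgfb3 stood at 35.8, 41.9 and 25.4 in small and 31.3, 36.3 and 25.5 in large cells (-0.13 ± 0.06, edgeR adjusted p = 0.346). The receptor gene Bmpr1a gave 0.12 ± 0.07 (adjusted p = 0.418), higher in 3 of 3 tumours. Of 4 Hippo genes, the growth control pathway that ends in YAP and TEAD, Wwc1 (also called KIBRA) was higher in 3 of 3 tumours. It stood at 33.2, 32.7 and 39.5 against 38.6, 34.3 and 42.8 (0.13 ± 0.05, adjusted p = 0.252). The transcription factor genes Tead2 and Tead3 gave -0.11 ± 0.08 and 0.03 ± 0.05.

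Matrix genes differed in both directions, with 0 of 12 past the threshold in edgeR and 5 of 12 in DESeq2. Of all genes tested DESeq2 called 11.7%. Col4a1, a basement membrane collagen gene, stood at 8.26, 12.7 and 23.3 in small and 13.6, 16.7 and 24.6 in large cells, and its ratio was largest in tumour 1, where its level was lowest (0.40 ± 0.12, edgeR adjusted p = 0.210). Tnc, encoding tenascin C, stood at 2.28, 2.43 and 2.31 against 2.87, 2.64 and 2.92 without overlap (0.27 ± 0.07, adjusted p = 0.210). Such a rise without overlap held for 2.34% of the genes tested. The epithelial laminin chain gene Lamb3 stood at 4.40, 3.998 and 4.16 against 3.82, 3.61 and 3.61 (-0.19 ± 0.06, adjusted p = 0.210), and it was 1 of 2 genes tested (0.781%) whose large values all lay below the small ones. Of 12 matrix and adhesion genes, 4 were higher and 3 lower in 3 of 3 tumours, with a median of 0.08. DESeq2 called Tnc (0.22, adjusted p = 0.0108) and Col4a1 (0.35, adjusted p = 0.0121) higher. It called Lamb3 (-0.23, adjusted p = 3.82e-05), the laminin chain gene Lama3 (-0.20, adjusted p = 0.0316) and the metalloproteinase inhibitor gene Timp2 (-0.23, adjusted p = 3.67e-04) lower. In edgeR Tnc passed with quartiles taken within tiles of the section (0.20, adjusted p = 0.0277) and without tumour 2 (0.34, adjusted p = 0.0364). Both of these settings also called Sparc and markers of other cell types higher, and the one without tumour 2 also called Arg1 higher. Col4a1 passed in edgeR without tumour 3 (0.56, adjusted p = 0.00566).

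The 4 cytoskeletal genes, of interest for cell shape, did not pass in edgeR. Flna, the actin crosslinker filamin A, gave -0.12 ± 0.05 (edgeR adjusted p = 0.304). It passed as lower in DESeq2 (-0.16, adjusted p = 0.00256) and in edgeR when scaled by cell volume (-0.29, adjusted p = 0.0360). The contractile actin gene Acta2 passed as higher with quartiles within tiles, a setting that also called pericyte and fibroblast markers higher. Tagln gave 0.10 ± 0.08 and Myl9 0.03 ± 0.08. Of 9 transition factor genes 2 were above background. Sox9 stood at 52.9, 47.5 and 44.7 against 48.1, 56.6 and 44.2 (0.03 ± 0.08, adjusted p = 0.929), with tumour 2 opposite to the others, and Snai1 gave 0.14 ± 0.09. Among the 5 progenitor genes the median was 0.02, with the adhesion receptor gene Cd44 at 0.07 ± 0.06 and Klf4 at 0.02 ± 0.07, and DESeq2 called Aldh1a3, an aldehyde dehydrogenase gene, lower (-0.25, adjusted p = 0.00577).

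Beyond the lists, the genes next to the threshold were Tnfrsf1b, Chad and Nr4a1, chosen after their values were seen. Tnfrsf1b, the gene of TNF receptor 2, stood at 2.75, 2.04 and 2.17 in small and 3.82, 2.72 and 2.73 in large cells (0.40 ± 0.07, edgeR adjusted p = 0.0836). Chad, encoding chondroadherin, stood at 3.21, 3.36 and 4.60 against 4.05, 4.04 and 5.92 (0.32 ± 0.06, adjusted p = 0.0876). The nuclear receptor gene Nr4a1 stood at 9.97, 10.7 and 14.3 against 12.7, 14.2 and 16.5 (0.32 ± 0.06, adjusted p = 0.0876) and passed, as higher, when the criteria were applied to 20 drawn transcripts per cell. DESeq2 called all 3 higher, with adjusted p-values of 1.96e-09 for Tnfrsf1b, 7.77e-08 for Chad and 3.82e-05 for Nr4a1. Without tumour 2 edgeR called Tnfrsf1b and Chad, each with an adjusted p of 0.0337. Levels stood in ascending order over the 4 quartiles in 3 of 3 tumours for 10 of 256 genes (3.91%), of which Fat1, Mki67, Nr4a1, Rgs5, Tnc, Tnfrsf1b and Top2a were above background. They stood in descending order for 4 (1.56%), Jun, Lamb3, Rela and Timp2.

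Markers of other cell types were present in both arms, and 0 of the 33 tested passed in the main edgeR test. Other settings called some of them higher in large cells: Pecam1 (0.32, adjusted p = 1.20e-04), Cdh5 (0.31, adjusted p = 0.00392) and the pericyte gene Rgs5 (0.26, adjusted p = 5.47e-05) in DESeq2, Pecam1 and Cdh5 in edgeR without tumour 2 (adjusted p = 0.0337 for each), and Pdgfrb, Rgs5 and the fibroblast gene Postn in edgeR with quartiles within tiles (0.27, 0.28 and 0.23). The 2 endothelial markers on the panel, Pecam1 and Cdh5, summed to 0.886, 0.868 and 0.565 per 1000 in small and 1.25, 0.980 and 0.755 in large cells, higher in 3 of 3 tumours. Pecam1 gave 0.37 ± 0.08 (adjusted p = 0.110) and Cdh5 0.36 ± 0.09 (adjusted p = 0.210), and Pecam1 was not above background in every tumour. The sums of the 6 fibroblast markers tested ranged from 3.92 to 6.07 in small and from 4.38 to 6.70 in large arms, those of 3 pericyte or smooth muscle markers from 11.3 to 14.1 and from 10.5 to 15.3 (12.6, 15.2 and 12.8 in the other cells within the count and volume limits), and those of 5 macrophage markers from 1.27 to 2.20 and from 1.29 to 2.42. The 11 T or NK cell markers summed to 1.88 to 2.19 and 1.93 to 2.36, the 3 neutrophil markers to 0.785 to 0.967 and 0.812 to 1.04, the 2 class II or dendritic markers to 0.490 to 1.33 and 0.497 to 1.38, and the adipocyte marker Lep to 0.170 to 0.205 and 0.189 to 0.219. No marker was at 0. In cells without any of these markers among 20 drawn transcripts (131887, 81617 and 110869 cells), Mki67 gave 0.76 and Top2a 0.78, both with an edgeR adjusted p of 0.0291. Cells without any marker transcript at full depth were 15943, 6369 and 13498. There Mki67 gave a smaller value of 0.16 and Top2a of 0.26, and neither gene passed. At full depth a cell with many transcripts is less likely to lack every marker, so this filter also selects by depth. What made these values smaller was not tested.

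Cdh1 and Col1a1 are described without a test because the selection used them. Cdh1 stood at 18.8, 14.8 and 14.3 in small and 10.7, 7.90 and 7.21 in large cells, a log2 ratio of -0.90 in the same fit. When the Cdh1 criterion was dropped this became -0.06. With the criteria applied to 20 drawn transcripts, 38.3%, 31.6% and 32.4% of the small cells and 19.2%, 15.4% and 14.6% of the large cells still qualified. Mki67 and Top2a passed under both of those changes, at 0.74 and 0.75 without the Cdh1 criterion and at 0.76 and 0.76 with the criteria at equal depth (adjusted p = 0.0349 and 0.00527). Col1a1 gave 0.26 in the same fit, higher in 2 of 3 tumours.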

How the data were processed

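Cells of 3 tumour sections were analysed from deposited tables that hold, per the file headers, a whole-number count for each cell and gene, not normalized, and from deposited cell tables with volume, centre, bounding box and shape scores in a unit the headers do not state. Scanpy 1.9.3 is listed in the submitters' processing notes, its use unstated. The sources used here do not state how cells were outlined and transcripts decoded. The other columns of the cell tables were not used. No doublet caller was run.

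Counts of the selected cells were added up for each arm of each tumour. The 6 sums held 5276709, 4173943 and 4597216 panel transcripts in small and 14443115, 11868806 and 12150391 in large arms. A level is the count per 1000 panel transcripts, and levels of different genes are not comparable because probes differ. Sums were tested in edgeR 4.0.16 (R 4.3.3) with filterByExpr, panel totals as library sizes, normalization factors of 1, the tumour as a block, since both arms come from the same section, and the two-sided quasi-likelihood F-test. Blanks were fitted with the same library sizes. DESeq2 1.42.0 on the same sums was an alternative. In simulated data for the large and small arms, 30 of 30 genes changed by a log2 value of 1 and 29 of 30 changed by 0.5 were called, and 7 of 198 unchanged genes. The simulation changed 60 of 258 genes and gave every gene the same dispersion of 0.01, which was not fitted to the real sums. It therefore does not give the power of the test in the real data, and genes not called cannot be taken as unchanged. No cell identifier was shared between sections (0 in common).

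Described genes are the cell cycle list, up to 3 members of each other list above background with the largest absolute log2 fold change, and genes past the threshold in every tumour's direction, at most 12 each way. One gene that this rule names is not reported here. The selection of cells, the gene lists and the markers were chosen with earlier results of these data known. Promoters were matched by symbol, with both genes found.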

Additional observations from a re-analysis of the deposited data

How the results depend on the processing

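Each count of genes past the threshold was recomputed under other settings. For large against small cells the count of 2 became 30 with DESeq2, 22 when scaled by cell volume (2 higher, 20 lower, with the median gene at -0.14), 8 with quartiles taken within tiles of the section, and 0 without the replicate block, with at least 40 panel counts, with deciles, with the volume range split at its median, with cells weighted equally and in cells without markers of other cell types. It was also 0 in edgeR with arms matched on transcripts per cell, a setting chosen after seeing the data. Cells without Mki67 or Top2a transcripts, also chosen after seeing the data, gave 0 of 254 genes in edgeR. Mki67 and Top2a were left out of that test, so its 0 is no change from the main fit for the genes tested. These settings with 0 calls had 1 gene (no block) to 49 genes at an unadjusted p under 0.05. Leaving out 1 tumour gave 0 to 10 genes, 0 of them without tumour 1 (22 at an unadjusted p under 0.05), 10 without tumour 2 and 3 without tumour 3. For the third against the second quartile the count of 2 became 5 with DESeq2 and 0 with TMM and without the replicate block (34 and 0 at an unadjusted p under 0.05). Leaving out 1 tumour gave 0 to 5 genes there, 0 of them in edgeR without tumour 2 (36 at an unadjusted p under 0.05). Among single genes 755 values kept direction and call, 32 passed newly and 16 no longer passed, all 16 for Mki67 and Top2a. A change of sign occurred 77 times, always in genes that had not passed. In cells without markers of other cell types these were Ccnd1 -0.33, Cldn4 0.24, Krt14 0.058, Mylk -0.32, Krt17 0.68, Jun 0.020, Dusp1 0.21, H2-K1 -0.10, Irf7 0.38, Hey1 -0.35, Wwc1 -0.051, Tead2 0.0037, Col4a1 -0.057, Myl9 -0.0041, Snai1 -0.16, Sox9 -0.011, Nfkb1 -0.026, Saa1 -0.11, Cd44 -0.070, Tnfrsf1b -0.21 and Chad -0.52. Scaling by cell volume gave H2-K1 -0.019, Irf1 -0.11, Hey1 -0.030, Bmpr1a -0.052, Wwc1 -0.037, Tead3 -0.14, Tagln -0.069, Myl9 -0.14, Snai1 -0.031, Sox9 -0.14, Nfkb1 -0.028, Saa1 -0.041, Cd44 -0.10 and Klf4 -0.15. Arms matched on transcripts per cell gave Ccnd1 -0.15, Gata3 0.13, Irf7 0.43, Wif1 0.27, Wnt5b 0.17, Hey1 -0.051, Dll1 0.19, Tgfb3 0.24, Tnc -0.23, Myl9 -0.016 and Nr4a1 -0.084. Cells without Mki67 or Top2a transcripts gave Ccnd1 -0.14, Irf7 0.16, Dll1 0.13 and Wwc1 -0.016. Quartiles within tiles gave Krt14 0.026, Krt17 0.00070, Wif1 0.15, Jag2 0.078, Tead3 -0.011, Sox9 -0.054 and Klf4 -0.061. DESeq2 gave Tead3 -0.017, Myl9 -0.014, Sox9 -0.014 and Klf4 -0.022. TMM gave Klf4 -0.0021, cells weighted equally Tead3 -0.019, and cells without markers among 20 drawn transcripts Klf4 -0.016. The criteria at equal depth gave Myl9 -0.064 and Klf4 -0.030, no Cdh1 criterion Tead3 -0.038 and Sox9 -0.024, and deciles Myl9 -0.0044. Leaving out 1 tumour at a time gave Gata3 -0.039 to 0.0033, Krt17 -0.44 to 0.092, Irf7 -0.21 to 0.039, Wif1 -0.56 to 0.15, Tead2 -0.18 to 0.0036, Myl9 -0.026 to 0.11, Sox9 -0.078 to 0.12 and Saa1 -0.0051 to 0.30. Where a setting keeps fewer cells or tumours it also has less depth or fewer pairs, and otherwise the cause was not tested. With 123 of 256 genes not above the blanks in every tumour, depth limits what can be said of those genes.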
